A study of Mus musculus with 16 samples.

Results

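Accessibility was followed at 9 inflammasome genes, Nlrp1a, Nlrp1b, Nlrp3, Nlrc4, Pycard, Casp1, Casp4, Il1b and Il18, in mouse hematopoietic progenitors profiled by ATAC-Seq, an assay of open DNA that uses a transposase loaded with adapters. The genes were listed by name among 21755 protein-coding genes, with earlier results of these data known. The paper that reported the data had already named Nlrp1a as a locus repressed by the factor GATA2, with less accessible peaks. It also reported that GATA2 was not found bound at this locus. Each listed gene was represented by the ATAC-Seq peaks lying within 100 kb of its 5′ end in GENCODE M21 on the mm10 build. These windows held 116 of the 90549 regions formed by merging the peaks of all libraries. A peak was present in at least 4 of the 16 libraries in 74 of the 116, against 57174 of all regions, and those were tested.

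The cells came from fetal liver, were immortalized through HoxB8 under estrogen control, were grown with β-estradiol, were infected with retrovirus and were isolated by FACS 3 days later. The hi-77+/+ empty cells had an intact -77 enhancer of Gata2 and received an empty vector. The hi-77-/- cells lacked this enhancer on both alleles. They were given the empty vector in the hi-77-/- empty group and GATA2 in the group of that name. The last group was given 9aa-Ins, a form of GATA2 whose zinc fingers are set apart by an insertion of 9 residues. Each group had 4 libraries. GATA2 and 9aa-Ins were thus supplied from a retroviral vector to cells that lack an enhancer of the endogenous gene. The labels named no separate lines within a genotype, so a difference between hi-77-/- and hi-77+/+ cells was also a difference between cell lines, and p-values measured only the spread between libraries.

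Inflammasomes are cytosolic complexes that assemble when a sensor protein detects a microbial product or damage. NLRP1, NLRP3 and NLRC4 are sensors. ASC, the product of Pycard, is the adaptor that joins a sensor to caspase-1, and caspase-4 of the mouse (also called caspase-11) binds lipopolysaccharide directly. Active caspase-1 cleaves the precursors of interleukin-1β and interleukin-18 and also gasdermin D, which then forms pores in the membrane, and this machinery is best known in macrophages and other myeloid cells.

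Peaks were compared by their rank within a library. The 49000 most significant peaks of each library were scored from 100 for the first in rank downward, and a region without a peak scored 0. A rank score is thus a place among the peaks of a library and not an amount of signal, and in bulk cells a site open in fewer cells cannot be told apart from a site less open in each cell. The libraries held 50195 to 112267 deposited peaks. Their constant background pileup, a rough guide to depth, was 0.301 to 0.707 in hi-77+/+ empty, 0.378 to 0.666 in hi-77-/- empty, 0.467 to 0.890 in GATA2 and 0.513 to 0.640 in 9aa-Ins, and its part in the results below was not tested. Every library correlated better with its own group (mean Spearman rho 0.854 to 0.920) than with any other group (at most 0.855 to another group for any library). Promoters of the progenitor genes Kit, Cd34, Flt3, Myb, Spi1, Cebpa and Runx1 carried a peak in 16 of 16 libraries, and Mpo in 15. Among the ranked peaks no library had a promoter peak at 4 T lymphoid, 4 hepatocyte and 3 endothelial genes, and in the complete lists Lck had one in 4 libraries and Kdr in 3. Of 5 genes of mature myeloid cells, Adgre1 and Cd68 were marked in 16 libraries, Itgam in 4, S100a8 in 3 and Ly6g in 0. Summed over these 5 promoters there were 8 peaks of a possible 20 in hi-77+/+ empty, 11 in hi-77-/- empty, 8 in GATA2 and 12 in 9aa-Ins. Of 4 erythroid promoters there were 12, 9, 10 and 8 peaks of a possible 16 in the same order. Of 4 B lymphoid promoters there were 8, 8, 4 and 8 of 16, with Ebf1 marked in every library and Pax5 in none. RNA was not analysed here. The part of such differences in the results below was not tested.

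Loss of the -77 enhancer changed 30 of the 74 tested inflammasome regions by limma (Benjamini-Hochberg adjusted p below 0.05 over all regions tested). Of these, 23 (31.1%) were higher in hi-77-/- empty than in hi-77+/+ empty, where 21.2% of all tested regions were higher, and 7 (9.46%) were lower, where 19.1% were lower. The median difference in rank score was 6.97 over the 74 regions and 0 over all tested regions. By presence, 9 of the 116 regions are called opened, with a peak in every library of hi-77-/- empty and in none of hi-77+/+ empty (3.59% of all regions). No region was closed in the reverse sense (2.11% of all regions). With the complete deposited peak lists the split changed to 18 higher and 21 lower, of 111 regions tested, where 9% and 21.9% of all regions were called. With all peaks of -log10 q of at least 5 there were 22 higher and 10 lower of 90 regions tested (17% and 18.3% of all regions). By presence the complete lists gave 3 opened and 6 closed of 231 regions (1.32% and 2.34% of all regions), and lists shortened to 50% of the 49000 peaks gave 4 opened and 2 closed of 55 (4.88% and 3.45%). The direction with more calls thus turned with the complete lists, by limma and by presence. It also turned over all regions, from 21.2% higher and 19.1% lower to 9% and 21.9% by limma. By presence it turned there from 3.59% opened and 2.11% closed to 1.32% and 2.34%. The turn was therefore not particular to the listed genes.

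GATA2 changed 15 of the 74 regions relative to hi-77-/- empty. There were 5 higher (6.76%), against 8.51% of all tested regions, and 10 lower (13.5%), against 12.4%. Both shares were near those of all regions. None of the 116 regions was opened (1.73% of all regions) and 1 was closed (2.23%). With complete lists 2 were higher and 11 lower (3.73% and 8.79% of all regions), and with all peaks of -log10 q of at least 5 there were 3 higher and 15 lower (3.99% and 15.4%). By presence the complete lists gave 1 opened and 0 closed (0.75% and 1.43% of all regions), and shortened lists 1 opened and 3 closed (1.89% and 3%).

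9aa-Ins changed 5 of the 74 regions relative to hi-77-/- empty, all higher (6.76%, against 5.26% of all tested regions). This number depended on the peaks taken. With complete lists 16 of 111 were higher and 0 lower (10.4% and 0.111% of all regions), with -log10 q of at least 5 there were 20 of 90 and 0 (13% and 0.439%), and with peaks covering 50% of the region 11 and 1 of 66. The share of all regions was not computed for 50% cover. With equal lists no region was lower (1.75% of all tested regions), 1 was opened (1.35% of all regions) and 0 were closed (0.171%). Between the GATA2 forms, 17 regions were higher in 9aa-Ins than in GATA2 (23.0%, against 16% of all tested regions) and 2 were lower (2.70%, against 8.27%). By presence 2 regions were open in 9aa-Ins and absent in GATA2 (2.97% of all regions), and 0 were in the reverse case (1.47%). With complete lists this comparison gave 50 higher and 1 lower of 111 regions, where 28.8% and 2.5% of all regions were called, and with -log10 q of at least 5 it gave 44 and 0 of 90 (38% and 2.83%). The GATA2 and 9aa-Ins comparisons share the hi-77-/- empty libraries, and the -77 deletion uses the same libraries, so each is given by its own values.

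**Figure D1:**
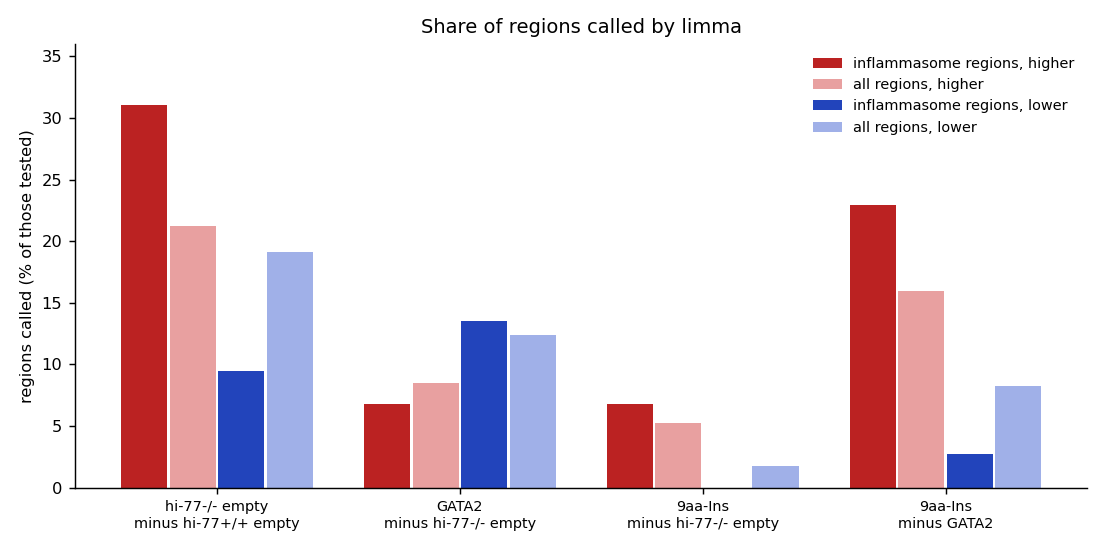
Share of tested regions that limma called higher or lower, in percent, for the 74 regions around the inflammasome genes (dark bars) and for all 57174 regions (light bars), in 4 comparisons. The bars for higher calls around the inflammasome genes reach 31.1% for hi-77-/- empty minus hi-77+/+ empty and 23.0% for 9aa-Ins minus GATA2, and stand near the bars of all regions in the comparisons of GATA2 and of 9aa-Ins with hi-77-/- empty.

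The sensors Nlrp1a and Nlrp1b, neighbouring paralogs on chromosome 11, of which Nlrp1b encodes the sensor cleaved by anthrax lethal factor, had the largest changes at promoters. In this list a promoter region is the peak region nearest to a 5′ end and within 1 kb of it. Both promoters ranked low with the enhancer intact, high without it, low again with GATA2 and high with 9aa-Ins. The 250 bases upstream of each 5′ end, read from the RefSeq sequence of GRCm38.p6 (mm10) on the minus strand, are shown because the summits of both peaks lie within them. Capitals mark GAGGAA, the core of the site bound by the myeloid factor PU.1, on either strand, or the GATA motif (the letters GATA preceded by A or T and followed by A or G, on either strand).
Nlrp1a, chr11:71144705-71144954: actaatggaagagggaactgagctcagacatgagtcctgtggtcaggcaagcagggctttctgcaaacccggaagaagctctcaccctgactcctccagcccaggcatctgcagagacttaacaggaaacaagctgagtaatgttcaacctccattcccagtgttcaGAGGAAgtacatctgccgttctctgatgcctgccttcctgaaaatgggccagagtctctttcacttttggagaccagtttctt
Nlrp1b, chr11:71230734-71230983: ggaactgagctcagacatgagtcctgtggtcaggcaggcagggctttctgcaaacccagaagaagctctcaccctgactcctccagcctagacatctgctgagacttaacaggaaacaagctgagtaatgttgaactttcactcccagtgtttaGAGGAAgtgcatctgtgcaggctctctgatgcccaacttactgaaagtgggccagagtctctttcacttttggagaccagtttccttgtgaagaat
Each stretch held 1 GAGGAA match, 2 E-boxes (CANNTG) and no GATA match. Over a global alignment of 263 columns the stretches shared 219 bases (83.3%), with no identical run longer than 37 bases. The whole promoter regions were 70.2% identical with an identical run of 98 bases. The authors kept uniquely mapped reads only, so reads that matched both copies were left out, and the values of the paralogs are uncertain to that extent.

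At the Nlrp1a promoter (chr11:71144599-71145119), the rank scores were 22.9, 0, 0 and 0 in hi-77+/+ empty and 64.8, 66.3, 80.8 and 72.6 in hi-77-/- empty. They were 7.34, 0, 43.6 and 30.9 in GATA2 and 60.9, 74.9, 74.4 and 60.5 in 9aa-Ins. The hi-77-/- empty and 9aa-Ins libraries were all above every hi-77+/+ empty and every GATA2 library, and they overlapped each other. The score rose by 65.4 ± 8.98 (SE, n = 4 per group) with the deletion, limma adjusted p = 1.28e-05 (two-sided exact permutation p = 0.0286, the smallest that 4 against 4 libraries allow). It fell by 50.6 ± 8.98 with GATA2 (limma adjusted p = 0.000303, exact p = 0.0286) and was 47.2 ± 8.98 higher in 9aa-Ins than in GATA2 (limma adjusted p = 0.00055, exact p = 0.0286). The difference of 9aa-Ins from hi-77-/- empty, -3.44 ± 8.98, did not pass the test (limma adjusted p = 0.969). In the complete lists 2 of 4 hi-77+/+ empty libraries and 4 of 4 GATA2 libraries had a peak at this promoter, so the site was ranked lower in GATA2 and not absent. On normal scores of the ranks, a scale that spreads out the weakest peaks, the GATA2 call was lost (adjusted p = 0.101), as was that of 9aa-Ins against GATA2 (adjusted p = 0.110).

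The Nlrp1b promoter (chr11:71230555-71231189) moved in the same comparisons. Its scores were 0, 35.7, 13.8 and 1.52 in hi-77+/+ empty, 85, 88.6, 87.5 and 77.3 in hi-77-/- empty, 1.11, 22.8, 0 and 59.1 in GATA2, and 76.2, 78.0, 76.6 and 74.2 in 9aa-Ins. GATA2 replicate 4 stood highest of the GATA2 libraries and still below every hi-77-/- empty and 9aa-Ins library. The differences were 71.9 ± 10.3 with the deletion (limma adjusted p = 2.02e-05), -63.9 ± 10.3 with GATA2 (adjusted p = 0.000114) and 55.5 ± 10.3 for 9aa-Ins against GATA2 (adjusted p = 0.000438), each with exact p = 0.0286. When peaks had to cover 50% of the merged region, the calls for the deletion and for GATA2 were lost (adjusted p = 0.299 and 0.403). The Nlrp1b window overlaps that of Nlrp1a and includes both promoters. Of the 4 regions tested in it, 3 were called higher with the deletion (21.2% of all tested regions). With GATA2 3 were lower (12.4% of all), and 3 were higher in 9aa-Ins than in GATA2 (16% of all). The number of peaks within 100 kb of Nlrp1a was 1 in each hi-77+/+ empty library and 2 in each of the other 12. Around Nlrp1b there were 2 peaks in each hi-77+/+ empty library against 4, 4, 3 and 5 in hi-77-/- empty, 3, 3, 2 and 4 in GATA2, and 3, 3, 4 and 4 in 9aa-Ins.

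**Figure D2:**
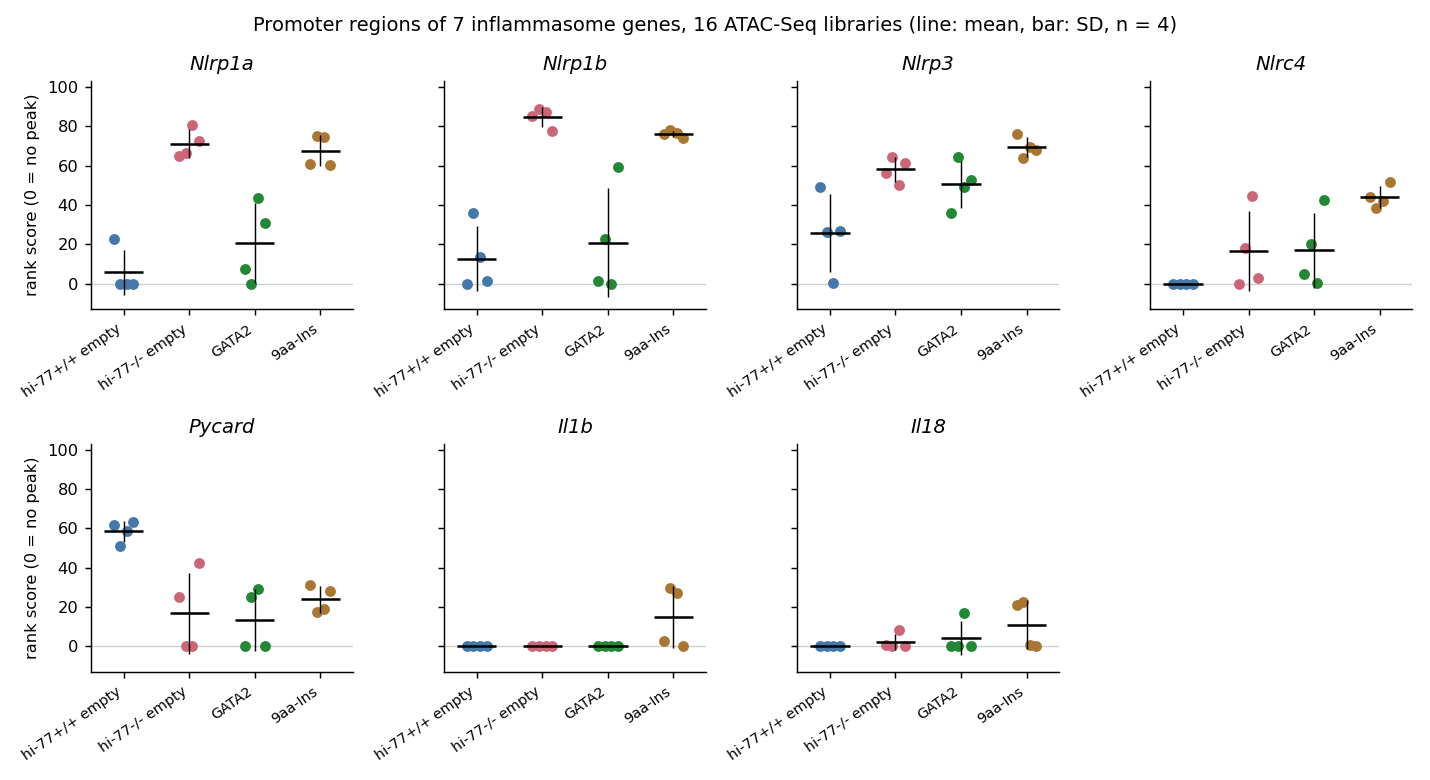
Rank score (0 is no peak, 100 the first in rank) of the promoter regions of 7 inflammasome genes in the 4 libraries of each group; points are libraries, horizontal lines means and vertical lines SD. At Nlrp1a and Nlrp1b the hi-77-/- empty and 9aa-Ins points lie above all hi-77+/+ empty and GATA2 points, while Pycard is highest in hi-77+/+ empty and Il1b and Il18 stay at 0 in most libraries.

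Nlrp3, which encodes a sensor that responds to potassium efflux and many forms of cell damage, also gained rank at its 5′ end with the deletion, and no region around it was called for GATA2 or 9aa-Ins against hi-77-/- empty. The 250 bases upstream of its 5′ end (plus strand) are shown for comparison with the Nlrp1 promoters, with the same marking.
Nlrp3, chr11:59541318-59541567: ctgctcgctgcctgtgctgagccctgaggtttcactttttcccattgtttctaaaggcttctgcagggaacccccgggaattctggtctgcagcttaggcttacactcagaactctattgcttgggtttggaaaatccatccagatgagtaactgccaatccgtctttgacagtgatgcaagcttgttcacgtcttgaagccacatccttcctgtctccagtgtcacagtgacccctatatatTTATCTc
This stretch held 1 GATA match, read on the other strand next to the 5′ end, and no GAGGAA. The promoter region (chr11:59541219-59541774) scored 49.3, 26.4, 0.340 and 26.8 in hi-77+/+ empty, 56.4, 64.3, 50.2 and 61.4 in hi-77-/- empty, 35.7, 64.3, 49.2 and 52.6 in GATA2, and 76.2, 63.9, 69.7 and 68.2 in 9aa-Ins. It was open in 16 of 16 libraries, and the hi-77+/+ empty libraries were all below the hi-77-/- empty ones. The rise with the deletion was 32.4 ± 8.25 (limma adjusted p = 0.00401, exact p = 0.0286). That call was lost with complete lists and with shortened lists (adjusted p up to 0.259).

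A further region 0.8 kb downstream of the Nlrp3 5′ end (chr11:59542355-59542954, summit in an annotated UTR of Nlrp3) was opened by the deletion. No hi-77+/+ empty library had a peak there. Scores were 31.4, 62.2, 50.2 and 45.4 in hi-77-/- empty, 49.1, 61.4, 27.4 and 66.3 in GATA2, and 70.7, 69.3, 65.5 and 65.3 in 9aa-Ins. The score rose by 47.3 ± 8.09 with the deletion (limma adjusted p = 0.000127, exact p = 0.0286), and the differences of GATA2 and 9aa-Ins from hi-77-/- empty did not pass (adjusted p = 0.838 and 0.166). With shortened lists the call was lost (adjusted p = 0.533). At the far end of the window, 82.7 kb downstream and nearest to the olfactory receptor gene Olfr223, a region fell from 79.5 ± 10.8 (SD, n = 4) to 51.3 ± 4.78 with the deletion (limma adjusted p = 0.00074), a call lost when peaks had to cover 50% of the region (adjusted p = 0.434). Of 14 tested regions around Nlrp3, 4 were higher (28.6%, against 21.2% of all tested regions) and 1 was lower (7.14%, against 19.1%) with the deletion. With GATA2 0 were called (8.51% higher and 12.4% lower of all), and with 9aa-Ins 0 (5.26% and 1.75% of all). In 9aa-Ins 1 was lower than in GATA2 (7.14%, against 8.27%) and 0 were higher (16% of all). The number of peaks within 100 kb overlapped between all groups, with means of 12 to 13.8.

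Nlrc4, the sensor that responds to bacterial flagellin and secretion systems through NAIP proteins, carried its clearest change inside the gene. A region 18.2 kb downstream of the 5′ end (chr17:74440562-74440925), in an intron of Nlrc4, had a peak in every library of the other 3 groups and in 2 of 4 GATA2 libraries. The 300 bases around its summit (GRCm38.p6, plus strand) are shown because, of the named regions inside a listed gene, it lost the most rank with GATA2, with GATA and GAGGAA matches in capitals.
Nlrc4, chr17:74440544-74440843: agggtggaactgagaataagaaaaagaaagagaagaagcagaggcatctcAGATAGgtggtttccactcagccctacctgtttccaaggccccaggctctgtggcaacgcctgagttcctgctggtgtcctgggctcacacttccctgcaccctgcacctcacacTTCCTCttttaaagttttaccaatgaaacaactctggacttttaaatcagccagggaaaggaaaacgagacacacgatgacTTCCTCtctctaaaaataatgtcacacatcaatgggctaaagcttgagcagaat
It held 1 GATA match and 2 GAGGAA matches. Scores were 42.9, 58.5, 53.1 and 40.9 in hi-77+/+ empty, 58.7, 63.7, 65.0 and 62.8 in hi-77-/- empty, 0, 6.75, 0 and 42.3 in GATA2, and 67.9, 56.7, 67.9 and 69.1 in 9aa-Ins. GATA2 replicate 4 scored far above the other GATA2 libraries, below every hi-77-/- empty and 9aa-Ins library, and within the range of hi-77+/+ empty. The score fell by 50.3 ± 8.07 with GATA2 (limma adjusted p = 0.000108, exact p = 0.0286), was 53.1 ± 8.07 higher in 9aa-Ins than in GATA2 (adjusted p = 6.36e-05, exact p = 0.0286), and did not pass for the deletion (13.7 ± 8.07, adjusted p = 0.189). Both calls were kept under each of the 27 alternative settings, leave-one-out included.

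The Nlrc4 promoter region (chr17:74459051-74459412) was weak. It scored 0 in all hi-77+/+ empty libraries, 0, 18.1, 44.5 and 3.08 in hi-77-/- empty, 4.96, 20, 0.230 and 42.3 in GATA2, and 44.3, 38.3, 41.8 and 51.6 in 9aa-Ins. In the complete lists all 16 libraries had a peak there. Its score was 27.1 ± 9.62 higher in 9aa-Ins than in GATA2 (limma adjusted p = 0.0458, exact p = 0.0857), with overlapping libraries. Leaving out any of 12 libraries ended that call, namely every hi-77+/+ empty and 9aa-Ins library, GATA2 replicates 1, 2 and 3, and hi-77-/- empty replicate 2 (adjusted p = 0.0524 to 0.154). That call was also lost on normal scores and with a shared rank for tied peaks, among other settings (adjusted p up to 0.274). Of 8 tested regions around Nlrc4, 0 were called with the deletion (21.2% higher and 19.1% lower of all tested regions). With GATA2 1 was lower (12.5%, against 12.4%), and 2 were higher in 9aa-Ins than in GATA2 (25%, against 16%).

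Pycard, the adaptor gene, moved opposite to the Nlrp1 promoters with the deletion. Its promoter region (chr7:127992750-127994045, summit in an annotated UTR of Pycard) lost rank without the enhancer, and neither GATA2 nor 9aa-Ins changed the score by the test. The 250 bases upstream of the 5′ end (minus strand) follow, as the promoter of the list that fell.
Pycard, chr7:127993868-127994117: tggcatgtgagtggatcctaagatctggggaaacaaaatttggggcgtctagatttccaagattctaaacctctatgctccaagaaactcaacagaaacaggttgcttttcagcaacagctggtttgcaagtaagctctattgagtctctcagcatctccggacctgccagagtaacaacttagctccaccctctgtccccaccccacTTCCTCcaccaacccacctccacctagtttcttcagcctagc
The stretch held 1 GAGGAA match, read on the other strand, and no GATA match. Scores were 61.6, 50.8, 58.7 and 63.0 in hi-77+/+ empty, 25.1, 0, 0 and 42.2 in hi-77-/- empty, 0, 24.9, 29.4 and 0 in GATA2, and 31.2, 17.3, 18.8 and 28.2 in 9aa-Ins. The hi-77+/+ empty libraries were above all 12 others. The score fell by 41.7 ± 9.58 with the deletion (limma adjusted p = 0.00182, exact p = 0.0286), while the differences for GATA2 and 9aa-Ins against hi-77-/- empty did not pass (adjusted p = 0.897 and 0.852). On normal scores the call for the deletion was lost (adjusted p = 0.0625).

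The window of Pycard is gene-dense and held 32 regions, 18 of them tested, and most of the called ones lay in or near other genes. With the deletion 5 were higher (27.8%, against 21.2% of all tested regions) and 4 lower (22.2%, against 19.1%). A region 48.4 kb upstream (chr7:128042306-128042866), nearest to the integrin gene Itgam, was opened: it scored 0 in hi-77+/+ empty, 49.5, 47.2, 54.9 and 55.3 in hi-77-/- empty, 9.17, 24.9, 38.1 and 44.8 in GATA2, and 48.5, 48.9, 58.9 and 47.6 in 9aa-Ins. The GATA2 libraries were all below those of hi-77-/- empty and 9aa-Ins, which overlapped. The differences were 51.7 ± 7.51 with the deletion (limma adjusted p = 2.12e-05), -22.5 ± 7.51 with GATA2 (adjusted p = 0.0379) and 21.7 ± 7.51 for 9aa-Ins against GATA2 (adjusted p = 0.0398). The GATA2 call was lost without any 1 of the 4 hi-77-/- empty libraries or GATA2 replicates 1 and 2 (adjusted p = 0.0503 to 0.144), and the call of 9aa-Ins against GATA2 without any 9aa-Ins library or GATA2 replicates 1 and 2 (adjusted p = 0.0596 to 0.154). Complete lists and peaks narrower than 1 kb also ended the GATA2 call. Both calls were lost on normal scores and in the fit on the 8 libraries compared (adjusted p up to 0.236 and 0.238).

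Further regions near Itgam were also higher with the deletion. The site 56.8 kb upstream of Pycard rose from 44.3 ± 16.2 to 74.8 ± 2.77 (SD, n = 4, limma adjusted p = 0.000153) and was 82.6 ± 2.31 in GATA2 and 82.1 ± 2.04 in 9aa-Ins. A site 95.4 kb upstream, in an intron of Itgam, had means of 8.13 in hi-77+/+ empty, 33.6 in hi-77-/- empty, 6.22 in GATA2 and 52.7 in 9aa-Ins. It was 46.5 ± 9.75 higher in 9aa-Ins than in GATA2 (limma adjusted p = 0.00132). Its call for the deletion (adjusted p = 0.0434) was lost on leaving out hi-77+/+ empty replicate 1, 2 or 4, hi-77-/- empty replicate 2 or 4, or 9aa-Ins replicate 4 (adjusted p = 0.0501 to 0.165). That call was also lost with complete lists, -log10 q of at least 5 and normal scores, among other settings (adjusted p up to 0.4295). The site 25.4 kb upstream was the region opened in 9aa-Ins, with scores of 35.3, 28.0, 30.9 and 15.5 against 0 in hi-77-/- empty, although limma did not call it (27.4 ± 9.26, adjusted p = 0.0875).

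On the other side of Pycard the deletion lowered a region 97.9 kb downstream, in a coding exon of the vitamin K reductase gene Vkorc1, from 87.0 ± 5.21 to 56.9 ± 7.11 (SD, n = 4, limma adjusted p = 1.61e-05). GATA2 raised it to 69.7 ± 3.70 (adjusted p = 0.0352), a call lost without hi-77-/- empty replicate 3 or 4 or GATA2 replicate 2, 3 or 4 (adjusted p = 0.0573 to 0.123) and, among other settings, with complete lists (adjusted p up to 0.483). A region 74.2 kb downstream, in an intron of the acetyltransferase gene Kat8, scored 58.4, 1.93, 55.0 and 50.1 in hi-77+/+ empty against 0, 0, 0 and 8.58 in hi-77-/- empty (limma adjusted p = 0.00348), with hi-77+/+ empty replicate 2 apart from its group. Another Kat8 intron site, 71.0 kb downstream, had means of 48.3, 59.0, 20.8 and 50 in hi-77+/+ empty, hi-77-/- empty, GATA2 and 9aa-Ins. It was lower with GATA2 (-38.2 ± 8.22, limma adjusted p = 0.0018) and higher in 9aa-Ins than in GATA2 (29.2 ± 8.22, adjusted p = 0.0122), the latter lost without 9aa-Ins replicate 2 (adjusted p = 0.0572). Both were lost when peaks had to cover 50% of the region and on normal scores (adjusted p up to 0.166 and 0.282). The call of 9aa-Ins against GATA2 was also lost with shortened lists and in the fit on the 8 libraries compared.

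Casp1 and Casp4, the caspase genes, lie side by side on chromosome 9 and had almost no accessible chromatin. Neither had a promoter region, as was the case for 43.9% of protein-coding genes. In the complete lists no library had a peak within 1 kb of the Casp1 5′ end, while 7 of 16 had one at Casp4, 4 of them in 9aa-Ins, 2 in hi-77+/+ empty and 1 in hi-77-/- empty. Each gene had 2 regions within 100 kb and 1 of them was tested. The number of peaks was 0 to 2 per library for both, and the groups overlapped in all comparisons. The region 92.4 kb downstream of the Casp4 5′ end (chr9:5401256-5401516), intergenic and nearest to Casp12, scored 24.2, 0, 15.2 and 3.56 in hi-77+/+ empty, 0, 0, 19.7 and 0 in hi-77-/- empty, 59.1, 33.3, 49.8 and 23.5 in GATA2, and 14.8, 22.6, 18.4 and 0 in 9aa-Ins. The GATA2 libraries were above those of hi-77-/- empty and of 9aa-Ins. It rose by 36.5 ± 8.56 with GATA2 (limma adjusted p = 0.00375, exact p = 0.0286) and 9aa-Ins differed from GATA2 by -27.4 ± 8.56 (adjusted p = 0.0232). The second call was lost without GATA2 replicate 1 or 3 or 9aa-Ins replicate 4 (adjusted p = 0.0678 to 0.0926) and with complete lists, with all peaks of -log10 q of at least 5 and on normal scores (adjusted p up to 0.939). Peaks narrower than 1 kb and the fit on the 8 libraries compared ended it too.

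Il1b, which encodes the interleukin-1β precursor, had a closed promoter in most libraries and changing sites on both sides. The promoter region (chr2:129371048-129371368) was seen in 3 libraries only, with scores of 2.91, 29.5 and 27.2 in 9aa-Ins replicates 1 to 3, and was not tested. In the complete lists it was seen in 1 hi-77+/+ empty, 2 hi-77-/- empty, 1 GATA2 and 4 9aa-Ins libraries. Sequences around the summits of the pair of Il1b regions with the largest differences follow (GRCm38.p6, plus strand), the first for its gain with GATA2 and with 9aa-Ins and the second for its gain with the deletion.
Il1b 10.0 kb downstream, chr2:129360242-129360541: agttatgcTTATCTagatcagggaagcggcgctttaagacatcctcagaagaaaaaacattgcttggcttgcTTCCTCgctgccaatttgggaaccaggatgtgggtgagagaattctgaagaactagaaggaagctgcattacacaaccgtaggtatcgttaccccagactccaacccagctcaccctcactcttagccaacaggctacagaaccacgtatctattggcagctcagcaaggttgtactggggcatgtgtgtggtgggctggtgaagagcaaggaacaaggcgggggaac
Il1b 56.8 kb downstream, chr2:129313966-129314265: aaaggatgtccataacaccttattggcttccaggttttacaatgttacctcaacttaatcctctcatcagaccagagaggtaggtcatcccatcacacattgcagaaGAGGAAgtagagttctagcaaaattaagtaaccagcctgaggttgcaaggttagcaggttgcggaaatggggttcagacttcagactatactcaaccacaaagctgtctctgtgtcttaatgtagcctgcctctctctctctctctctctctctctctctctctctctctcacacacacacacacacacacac
The first held 1 GATA and 1 GAGGAA match and the second 1 GAGGAA match and a run of CA and CT repeats at its end.

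The region 10.0 kb downstream of the Il1b 5′ end (chr2:129359987-129361128, intergenic, past the 3′ end of the gene) was absent in hi-77+/+ empty and scored 0, 0, 0 and 27.9 in hi-77-/- empty, 22.2, 56.5, 67.5 and 54.5 in GATA2, and 61.7, 67.3, 71.6 and 63.0 in 9aa-Ins. The 9aa-Ins libraries were all above hi-77-/- empty, and GATA2 replicate 1 fell below hi-77-/- empty replicate 4. The gain was 58.9 ± 8.93 with 9aa-Ins (limma adjusted p = 0.000253, exact p = 0.0286) and 43.2 ± 8.93 with GATA2 (adjusted p = 0.00128, exact p = 0.0571). The difference between 9aa-Ins and GATA2 did not pass (15.7 ± 8.93, adjusted p = 0.236). With peaks narrower than 1 kb both calls were lost, and with shortened lists or peaks covering 50% of the region that of GATA2 was (adjusted p up to 1).

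A region 42.4 kb upstream of Il1b (chr2:129413548-129413964, intergenic) also gained rank with both forms of GATA2. It scored 0 in hi-77+/+ empty, 0, 16, 23.3 and 34.0 in hi-77-/- empty, 51.9, 73.2, 56 and 69.2 in GATA2, and 63.3, 58.2, 53.0 and 53.5 in 9aa-Ins. All GATA2 and 9aa-Ins libraries were above every hi-77-/- empty library. The gains were 44.2 ± 7.69 with GATA2 (limma adjusted p = 0.000231) and 38.7 ± 7.69 with 9aa-Ins (adjusted p = 0.00271), both with exact p = 0.0286. The first was lost with complete lists and when peaks had to cover 50% of the region (adjusted p up to 0.212), and the second with shortened lists and on normal scores (adjusted p up to 0.326).

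Between Il1b and Il1a, the gene of interleukin-1α, 3 regions separated 9aa-Ins from GATA2. The region 56.8 kb downstream of Il1b (chr2:129313904-129314307), whose nearest 5′ end is that of Il1a, scored 0, 0, 28.6 and 9.67 in hi-77+/+ empty, 73.6, 58.4, 64.5 and 64.3 in hi-77-/- empty, 56.5, 36.4, 51.7 and 34.9 in GATA2, and 75.7, 70, 82.8 and 81.4 in 9aa-Ins. It rose by 55.6 ± 7.19 with the deletion (limma adjusted p = 6.6e-06) and was 32.6 ± 7.19 higher in 9aa-Ins than in GATA2 (adjusted p = 0.00202), each with exact p = 0.0286. Every GATA2 library was below every hi-77-/- empty library, but the difference of -20.3 ± 7.19 missed the threshold (adjusted p = 0.051). On normal scores the call of 9aa-Ins against GATA2 was lost (adjusted p = 0.385).

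The region 32.5 kb downstream of Il1b (chr2:129337999-129338673) was opened by the deletion. It scored 0 in hi-77+/+ empty, 41.3, 44.1, 43.5 and 20.6 in hi-77-/- empty, 0, 17.5, 0 and 17.0 in GATA2, and 54.2, 49.7, 53.0 and 57.8 in 9aa-Ins. The hi-77-/- empty libraries were above all GATA2 libraries and below all 9aa-Ins libraries. Differences were 37.4 ± 7.21 with the deletion (limma adjusted p = 0.000381), -28.7 ± 7.21 with GATA2 (adjusted p = 0.00605) and 45.0 ± 7.21 for 9aa-Ins against GATA2 (adjusted p = 9.89e-05). Requiring peaks to cover 50% of the region ended the calls for the deletion and for GATA2 (adjusted p = 0.503 and 0.606). The third region, 54.9 kb downstream, was seen in 4 of 4 9aa-Ins libraries with scores of 46.6, 29.5, 50.4 and 24.4 and in 1 library each of hi-77-/- empty (25.3) and GATA2 (9.77). It was 31.4 ± 7.07 higher in 9aa-Ins than in hi-77-/- empty (limma adjusted p = 0.00756) and 35.3 ± 7.07 higher than in GATA2 (adjusted p = 0.000879). The call against hi-77-/- empty was lost in the fit on the 8 libraries compared (adjusted p = 0.093).

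The last named region of this window, 67.8 kb upstream, had means of 40.1 in hi-77+/+ empty, 12.8 in hi-77-/- empty, 15.7 in GATA2 and 7.33 in 9aa-Ins. Its fall with the deletion was at the edge of the test (-27.3 ± 10.5, limma adjusted p = 0.0435) and was lost without hi-77+/+ empty replicate 3 or 4, hi-77-/- empty replicate 2, 3 or 4, or 9aa-Ins replicate 1 or 2 (adjusted p = 0.0505 to 0.144). That call was also lost on normal scores, with peaks narrower than 1 kb and with 50% cover, among other settings. Of 9 tested regions around Il1b, 3 were higher (33.3%, against 21.2% of all tested regions) and 1 lower (11.1%, against 19.1%) with the deletion. With GATA2 2 were higher (22.2%, against 8.51%) and 1 lower (11.1%, against 12.4%). With 9aa-Ins 3 were higher (33.3%, against 5.26%), and 4 were higher in 9aa-Ins than in GATA2 (44.4%, against 16%).

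**Figure D3:**
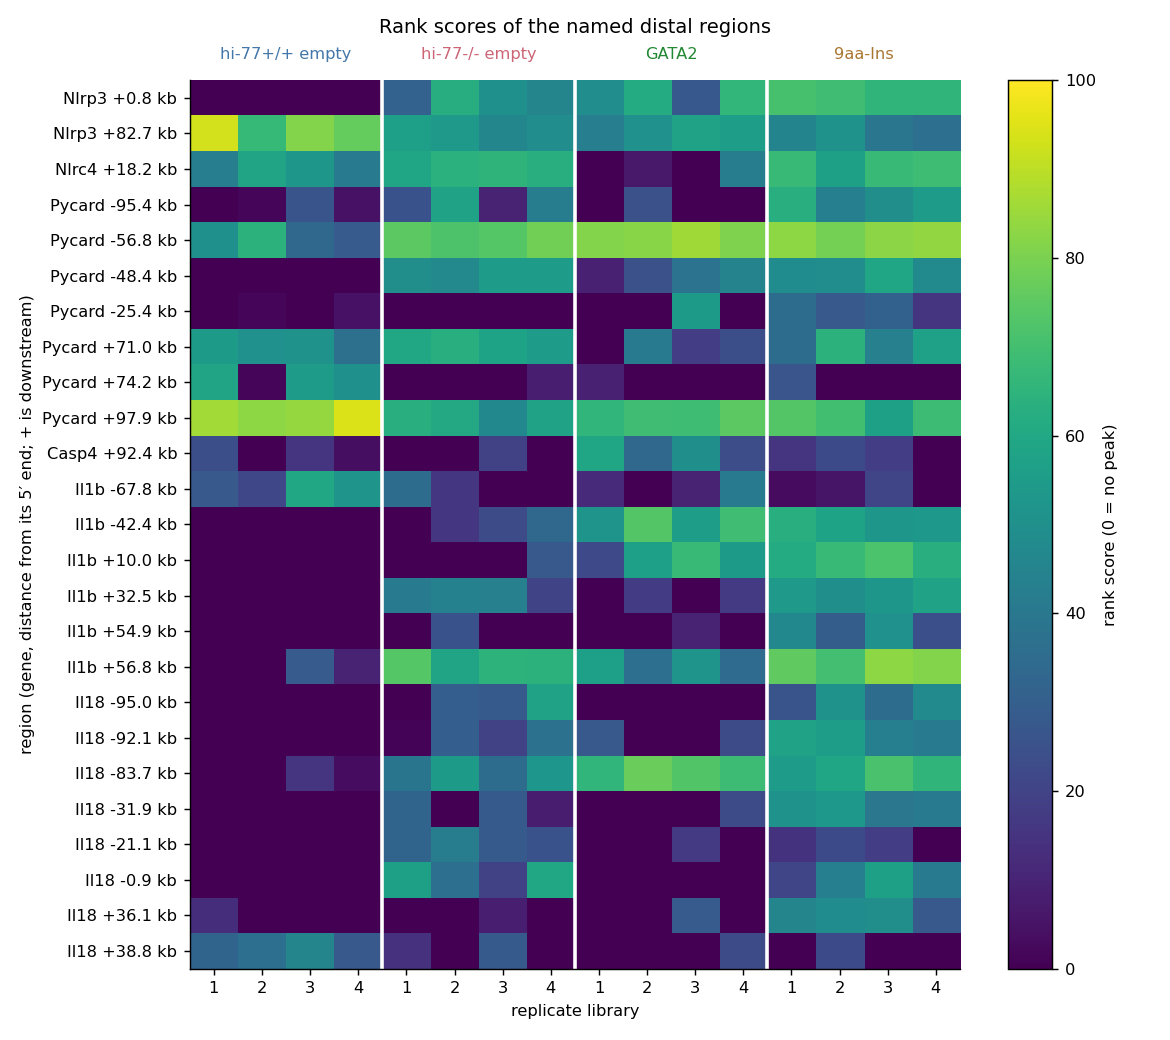
Rank score (colour, 0 is no peak) of the 25 named regions away from promoters in each of the 16 libraries, ordered by gene and by distance from its 5′ end. The hi-77+/+ empty columns are at 0 for most Il1b and Il18 sites, Nlrc4 at 18.2 kb downstream has no peak in 2 of 4 GATA2 libraries, and the Il1b sites at 42.4 kb upstream and 10.0 kb downstream rank high with GATA2 and with 9aa-Ins.

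Il18, the gene of the interleukin-18 precursor, had in its window 6 of the 9 regions opened by the deletion. The window held 31 of the 116 regions, and 3.59% of all regions were opened. With complete lists only 3 of 231 regions around all listed genes were opened and 6 were closed (1.32% and 2.34% of all regions). The promoter region itself (chr9:50554783-50554984) was weak, with no peak in hi-77+/+ empty and at most 22.6 in any library, and no comparison was called. A region 0.9 kb upstream (chr9:50553573-50553919), in an intron of the neighbouring carotenoid oxygenase gene Bco2, was the single region opened by the deletion, closed by GATA2 and open in 9aa-Ins. The 300 bases around its summit (GRCm38.p6, plus strand) are shown for that reason, a choice made after its values were seen.
Il18, chr9:50553631-50553930: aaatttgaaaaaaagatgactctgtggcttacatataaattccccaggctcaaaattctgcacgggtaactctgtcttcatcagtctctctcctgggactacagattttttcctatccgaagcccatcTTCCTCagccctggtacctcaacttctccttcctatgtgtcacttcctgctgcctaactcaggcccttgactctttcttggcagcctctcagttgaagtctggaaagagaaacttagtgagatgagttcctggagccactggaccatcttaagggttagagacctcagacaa
They held 1 GAGGAA match on the minus strand and no GATA match. Scores were 0 in all hi-77+/+ empty and all GATA2 libraries, 56.8, 36.4, 19.5 and 59.6 in hi-77-/- empty, and 20.9, 43.0, 56.7 and 40.9 in 9aa-Ins. The score rose by 43.1 ± 8.67 with the deletion (limma adjusted p = 0.000592), fell by 43.1 ± 8.67 with GATA2 (adjusted p = 0.00101) and was 40.4 ± 8.67 higher in 9aa-Ins than in GATA2 (adjusted p = 0.00163), each with exact p = 0.0286. The difference of 9aa-Ins from hi-77-/- empty was -2.74 ± 8.67 (adjusted p = 0.986). All 3 limma calls were kept under each of their 26 alternative settings. The closing by presence with GATA2 was not, since no listed region was closed with complete lists or with peaks narrower than 1 kb. In the complete lists, counting any peak within 1 kb of the 5′ end, Il18 was marked in 0 hi-77+/+ empty, 4 hi-77-/- empty, 2 GATA2 and 4 9aa-Ins libraries.

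Upstream of Il18 the same order of groups recurred at some sites and not at others. The site 21.1 kb upstream, in another Bco2 intron, scored 0 in hi-77+/+ empty, 32.3, 42.0, 28.4 and 25.1 in hi-77-/- empty, 0, 0, 17.1 and 0 in GATA2, and 14.8, 22.6, 18.3 and 0 in 9aa-Ins. It rose with the deletion (31.9 ± 6.48, limma adjusted p = 0.000602) and fell with GATA2 (-27.7 ± 6.48, adjusted p = 0.00358). Here 9aa-Ins was also below hi-77-/- empty in every library, without passing the test (-18.1 ± 6.48, adjusted p = 0.113).

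The site 83.7 kb upstream, intergenic and nearest to Plet1, instead rose with the deletion and again with GATA2. It scored 0, 0, 15 and 3.34 in hi-77+/+ empty, 39.0, 54.3, 35.5 and 52.4 in hi-77-/- empty, 65.7, 77.1, 72.7 and 68.4 in GATA2, and 55.5, 59.3, 71.1 and 65.5 in 9aa-Ins. All GATA2 and 9aa-Ins libraries were above those of hi-77-/- empty. The gains were 40.7 ± 6.53 with the deletion (limma adjusted p = 6.08e-05) and 25.6 ± 6.53 with GATA2 (adjusted p = 0.00675), and that of 9aa-Ins did not pass (17.5 ± 6.53, adjusted p = 0.131). The GATA2 call was lost with complete lists, with all peaks of -log10 q of at least 5 and on normal scores (adjusted p up to 0.488), and that of the deletion with shortened lists (adjusted p = 0.738).

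Nearby, the site 95.0 kb upstream was absent from all hi-77+/+ empty and GATA2 libraries and scored 0, 29.9, 28.4 and 57.6 in hi-77-/- empty and 26.1, 51.3, 35.4 and 47.4 in 9aa-Ins. It was 40.0 ± 9.04 higher in 9aa-Ins than in GATA2 (limma adjusted p = 0.00245, exact p = 0.0286). Its rise of 29.0 ± 9.04 with the deletion (adjusted p = 0.0151) was lost without hi-77-/- empty replicate 4 (adjusted p = 0.0622). Its fall with GATA2 (adjusted p = 0.0263) was lost without any GATA2 library or without hi-77-/- empty replicate 2 or 4 (adjusted p = 0.0534 to 0.101). Both of these calls were also lost with 50% cover and in the fit on the 8 libraries compared (adjusted p up to 0.133 and 0.1995). The site 92.1 kb upstream had means of 0, 21.9, 12.8 and 49.3 in hi-77+/+ empty, hi-77-/- empty, GATA2 and 9aa-Ins and was 36.4 ± 8.56 higher in 9aa-Ins than in GATA2 (limma adjusted p = 0.00336). By presence it was opened by the deletion, but its limma call (adjusted p = 0.0478) was lost on leaving out any hi-77+/+ empty library, hi-77-/- empty replicate 2, 3 or 4, or 9aa-Ins replicate 2, 3 or 4 (adjusted p = 0.051 to 0.151). That call was also lost with 50% cover and in the fit on the 8 libraries compared, among other settings (adjusted p up to 0.521).

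At a pair of other Il18 sites 9aa-Ins had the highest mean. The site 36.1 kb downstream, intergenic and nearest to Sdhd, scored 45.5, 48.7, 49.4 and 27.9 in 9aa-Ins, and only 1 library of each other group had a peak (13.3 in hi-77+/+ empty, 8.53 in hi-77-/- empty, 28.5 in GATA2). GATA2 replicate 3 was above 9aa-Ins replicate 4 there. The site was 40.7 ± 7.36 higher in 9aa-Ins than in hi-77-/- empty (limma adjusted p = 0.00128) and 35.7 ± 7.36 higher than in GATA2 (adjusted p = 0.00113, exact p = 0.0571). The call against hi-77-/- empty was lost on normal scores (adjusted p = 0.0646). In an intron of Pts, 31.9 kb upstream, scores were 50.9, 53.4, 39.5 and 40.9 in 9aa-Ins against means of 17.1 in hi-77-/- empty and 5.83 in GATA2. The difference from GATA2 was 40.4 ± 7.87 (limma adjusted p = 0.000695). That from hi-77-/- empty, 29.1 ± 7.87 (adjusted p = 0.0269), was lost without hi-77-/- empty replicate 2 or 4 or 9aa-Ins replicate 1 or 2 (adjusted p = 0.0704 to 0.102). It was also lost with complete lists, on normal scores and in the fit on the 8 libraries compared (adjusted p up to 0.426). At another site, 38.8 kb downstream, the score fell with the deletion from 35.6 ± 7.51 to 10.7 ± 13.6 (SD, n = 4, limma adjusted p = 0.0187), a call lost without hi-77+/+ empty replicate 3 or hi-77-/- empty replicate 2 or 4 (adjusted p = 0.057 to 0.0631). On normal scores it was lost too (adjusted p = 0.128). In all, 8 of 19 tested regions around Il18 were higher (42.1%, against 21.2% of all tested regions) and 1 lower (5.26%, against 19.1%) with the deletion. With GATA2 1 was higher (5.26%, against 8.51%) and 3 lower (15.8%, against 12.4%). With 9aa-Ins 2 were higher (10.5%, against 5.26%), and 5 were higher in 9aa-Ins than in GATA2 (26.3%, against 16%).

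**Figure D4:**
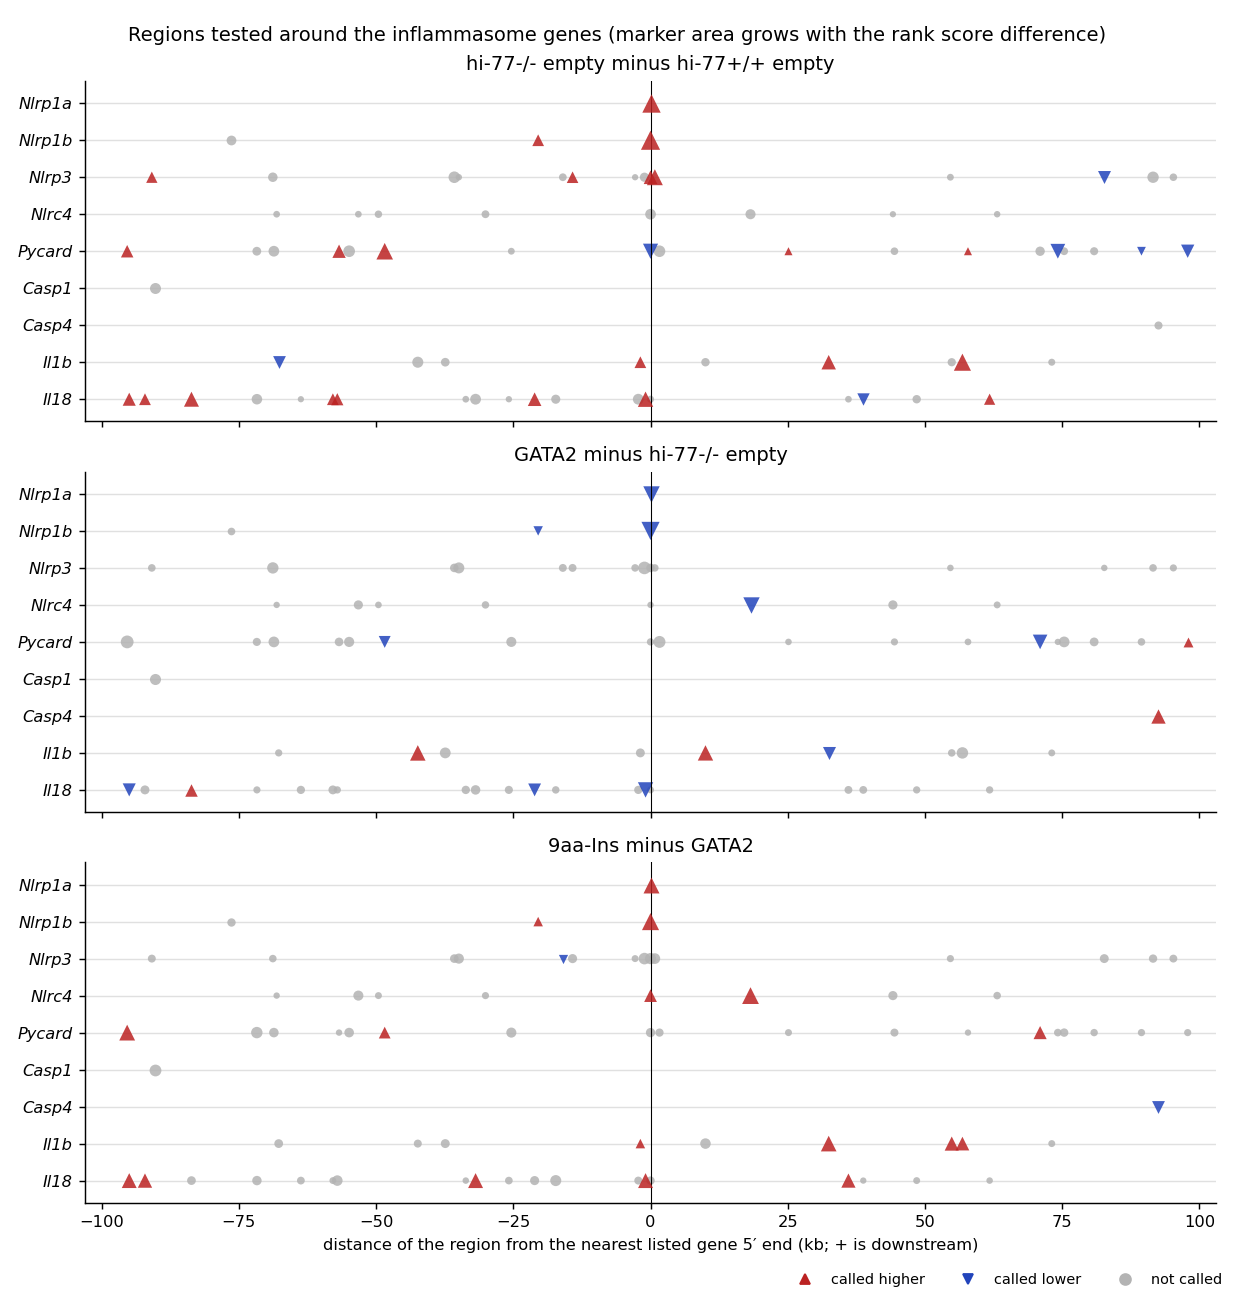
Tested regions by distance from the nearest listed 5′ end (kb, + is downstream) for each gene in 3 comparisons; upward triangles were called higher, downward triangles lower, grey points were not called, and area grows with the rank score difference. Calls stand at the 5′ ends of Nlrp1a and Nlrp1b in all 3 panels, at 18.2 kb in Nlrc4 in the lower pair of panels, and are scattered through the Pycard, Il1b and Il18 windows.

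The number of peaks within 100 kb gave the same windows without ranks. Around Il18 there were 9, 9, 10 and 11 peaks in hi-77+/+ empty, 17, 15, 19 and 18 in hi-77-/- empty, 14, 14, 13 and 13 in GATA2, and 16, 23, 21 and 18 in 9aa-Ins. The groups did not overlap for the deletion, for GATA2 and for 9aa-Ins against GATA2 (each exact permutation p = 0.0286, unadjusted). Around Il1b there were 3, 5, 5 and 6 peaks in hi-77+/+ empty, 5, 8, 5 and 7 in hi-77-/- empty, 7, 7, 8 and 9 in GATA2, and 10, 9, 11 and 9 in 9aa-Ins, and 9aa-Ins exceeded hi-77-/- empty without overlap (exact p = 0.0286). With the deletion 3 of the 9 genes (Nlrp1a, Nlrp1b and Il18) had more peaks without overlap, where 6.61% of protein-coding genes did, and 0 had fewer (10.7%). With GATA2 0 had more (4.36%) and Il18 had fewer (4.23%). With 9aa-Ins 1 had more (2.19%) and 0 fewer (1.95%), and in 9aa-Ins against GATA2 1 had more (4.65%) and 0 fewer (6.14%). The windows of Nlrp1a and Nlrp1b share regions, so their counts are not independent. With complete lists the Nlrp1a, Nlrp1b and Il18 groups overlapped, as they did within 50 kb for the deletion, and with shortened lists the GATA2 difference at Il18 was 0.25 in place of -3.75.

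**Figure D5:**
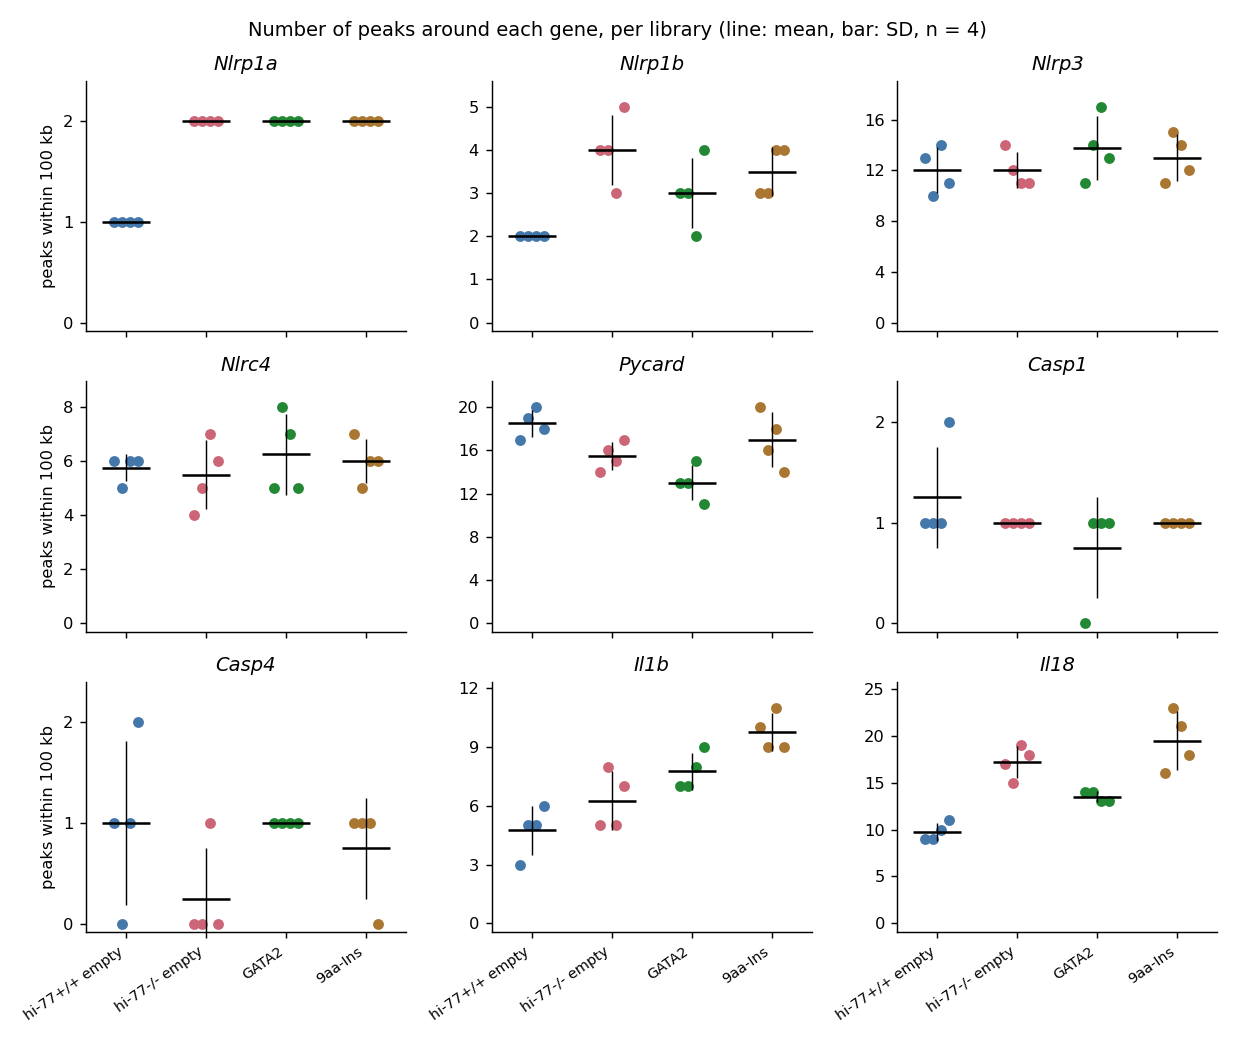
Number of peaks within 100 kb of each 5′ end (y axis) in every library of the 4 groups (x axis); points are libraries, horizontal lines means and vertical lines SD. Il18 falls from 17.2 peaks on average in hi-77-/- empty to 13.5 in GATA2, with 9.75 in hi-77+/+ empty and 19.5 in 9aa-Ins, while Nlrp3 and Nlrc4 overlap between all groups.

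Of the 116 regions, 42 were seen in fewer than 4 libraries and not tested, 34 were tested and not called in any of the 4 comparisons, and 40 were called in at least 1. By their summits 73 were intergenic, 27 intronic, 13 in an annotated UTR and 3 in a coding exon, and 25 had a peak in every library. The 11 called regions not described so far gave 14 calls, with differences between 5.61 and 24.2 in size. Picked after their values were seen, the site 1.9 kb upstream of Il1b was open in 16 libraries and rose from a mean of 62.0 to 83.5 with the deletion (limma adjusted p = 3.05e-05), and it was 11.3 higher in 9aa-Ins than in GATA2 (adjusted p = 0.0128). The site 20.5 kb upstream of Nlrp1b rose from 73.5 to 95.2 with the deletion (limma adjusted p = 3.28e-06), fell to 84.2 with GATA2 (adjusted p = 0.00436) and was at 95.5 in 9aa-Ins. Both had a peak where the promoters themselves were closed or weak in hi-77+/+ empty cells.

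Motif letters were counted in the 300 bases around the summit of each region. GAGGAA occurred in 54 of the 116 inflammasome regions (46.6%), against 37.5% of all 90549 regions, the GATA motif in 49 (42.2%, against 36.7%) and an E-box in 93 (80.2%, against 79.5%). Among the 10 regions that were lower with GATA2, 9 held GAGGAA and 3 a GATA match, and over all 7080 regions called lower with GATA2 these shares were 56.4% and 25.6%. Of the 5 regions higher with GATA2, 3 held a GATA match, against 68.1% of 4868. Of the 23 regions higher with the deletion, 16 held GAGGAA and 9 a GATA match, where all 12114 such regions gave 51.3% and 32.1%. These are descriptions of letters in a window, and the factors were not measured here.

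Other genes of the pathway were read at their promoters, 34 in all, of which 24 had a promoter region and 21 were tested. With the deletion 5 were called higher and 5 lower, with GATA2 3 higher and 2 lower, with 9aa-Ins none in either direction, and in 9aa-Ins against GATA2 2 higher and 2 lower. Of all tested regions, 21.2% were higher and 19.1% lower with the deletion, and 8.51% and 12.4% with GATA2. The shares were 5.26% and 1.75% with 9aa-Ins, and 16% and 8.27% in 9aa-Ins against GATA2. Whether the counts at these 21 promoters differ from those shares was not tested. Nek7, a kinase that binds NLRP3, fell with the deletion from a mean of 68.9 to 31.3 (limma adjusted p = 0.000488) and rose with GATA2 to 56.7 (adjusted p = 0.0174), while 9aa-Ins stood at 27.7, lower than GATA2 (adjusted p = 0.0063). Naip6, a receptor that pairs with NLRC4, had means of 20.9, 5.54, 43.6 and 11 in hi-77+/+ empty, hi-77-/- empty, GATA2 and 9aa-Ins and was higher with GATA2 (limma adjusted p = 0.00689) and lower in 9aa-Ins than in GATA2 (adjusted p = 0.0172). It shares sequence with its Naip paralogs and is uncertain for that reason. P2rx7, the ATP-gated channel upstream of NLRP3, rose with the deletion from 57.4 to 75.3 (limma adjusted p = 0.00716) and fell with GATA2 to 57.5 (adjusted p = 0.0131). Nlrp10 likewise went from 0 to 34.6 (adjusted p = 0.00477) and with GATA2 to 6.04 (adjusted p = 0.0284). Txnip, which binds NLRP3, fell with the deletion from 87.9 to 79.2 (adjusted p = 0.0105) and rose with GATA2 to 87.4 (adjusted p = 0.0255). In 9aa-Ins the means were 70.6 at P2rx7, 21.1 at Nlrp10 and 87.55 at Txnip. None of these passed the test against hi-77-/- empty or against GATA2.

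Further promoters were called for the deletion. Il18rap, a subunit of the interleukin-18 receptor, rose from 52.6 to 79.1 (limma adjusted p = 0.00053), Dpp8, an inhibitor of NLRP1, from 83.1 to 93.1 (adjusted p = 0.000261) and the interferon factor Irf1 from 86.6 to 93.9 (adjusted p = 0.00666). Casp8 fell from 84.7 to 72.0 (adjusted p = 0.00136), Brcc3 from 95.7 to 90.8 (adjusted p = 0.0109) and Gbp5 from 32.9 to 9.11 (adjusted p = 0.0473). Casp8 and Nfkb1 were higher in 9aa-Ins than in GATA2 (adjusted p = 0.00701 and 0.00906). Aim2, Mefv, Nlrp6, Naip1, Casp12, Il1a, Il1rn and Il1r2 had no promoter peak in any library, complete lists included. Around all 34 genes 379 regions were tested. With the deletion 87 were higher (23.0%, against 21.2% of all regions) and 62 lower (16.4%, against 19.1%). With GATA2 43 were higher (11.3%, against 8.51%) and 54 lower (14.2%, against 12.4%). With 9aa-Ins 30 were higher (7.92%, against 5.26%) and 1 lower (0.264%, against 1.75%), and in 9aa-Ins against GATA2 75 were higher (19.8%, against 16%) and 31 lower (8.18%, against 8.27%). Whether these shares differ from those of all regions was not tested.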

How the data were processed

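ATAC-Seq was performed on 16 libraries, 4 for each of 4 groups assigned from the sample labels. Per the labels and the study's methods, the authors trimmed reads with Trim Galore 0.4.1, aligned them to mm10 with Bowtie2 2.2.5, removed duplicates with Picard 2.26.0, kept uniquely mapped reads, shifted them by +4 and -5 bases and called peaks on each library with MACS2 without pooling replicates. The deposited peak files hold a display score, a fold enrichment ratio, -log10 p and -log10 q (p-value and q-value of MACS2) and the summit offset of each peak. In all 16 libraries the deposited fold enrichments were whole multiples of 1 step (tolerance 0.05 of a step), as a constant background gives, although the methods name that option for the hi-77-/- groups. Read counts were not used here, so the depth is known only through peak numbers and the background pileup, and intervals that need counts are not given.

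Peaks on chromosomes 1 to 19 and X were ordered by -log10 p (ties by fold enrichment, then position), the top 49000 of each library were kept, and peaks overlapping by at least 1 bp were merged over all libraries. The -log10 p values are heavily tied, with 102 to 129 distinct values per library. Rank scores ran from 100 down to 0 (no peak). Regions with a peak in at least 4 of 16 libraries were fitted with limma 3.58.1 in R 4.3.3 (trend and robust options, all 16 libraries, Benjamini-Hochberg adjustment over all 57174 regions). Exact two-sided permutation tests over 70 regroupings, presence in 4 of 4 against 0 of 4 libraries, and the number of peaks within 100 kb were added. The fit was tested on simulated data, and it did not recover every shift put in, small shifts least often.

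Named were the nearest region within 1 kb of each listed 5′ end and, of the regions called by limma or by presence, the 30 with the largest rank score difference in any comparison, 32 regions in all, and pathway genes whose promoter was called or had no peak. The members, gene lists and rules were chosen with earlier results of these data known. Alternatives were the complete lists, 50% of the 49000 peaks, -log10 q of at least 5, a 50 kb window, peaks narrower than 1 kb, peaks covering 50% of the region, no filter on rarely seen regions, normal scores, a fit on the 8 libraries compared, a replicate block and leaving out each library, and, chosen after seeing the data, a shared rank for tied peaks. Analyses used Python 3.11.15, pandas 2.3.3, scipy 1.17.1, pysam 0.24.0 and Biopython 1.88.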

Additional observations from a re-analysis of the deposited data

Results flagged for a closer look

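Within groups of 4 libraries, 29 of 164 tested groups of values had 1 library far from the other 3 by Dixon's test, where chance alone marks about 1 in 20. In 19 of the 29 the other 3 libraries simply had no peak, so a single weak peak was enough. By group there were 5 in hi-77+/+ empty, 8 in hi-77-/- empty, 11 in GATA2 and 5 in 9aa-Ins.

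At the Nlrc4 intron site, GATA2 replicate 4 scored 42.3 against 0 to 6.75 in the other GATA2 libraries, and 9aa-Ins replicate 2 scored 56.7 against 67.9 to 69.1. At the Nlrp1a promoter, hi-77+/+ empty replicate 1 scored 22.9 and the others 0. For Il1b, hi-77-/- empty replicate 4 scored 27.9 at the site 10.0 kb downstream, where the others had no peak, and 20.6 at 32.5 kb downstream, below 41.3 to 44.1 in the others. At 54.9 kb downstream of Il1b the lone peaks were 25.3 in hi-77-/- empty replicate 2 and 9.77 in GATA2 replicate 3.

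Around Pycard, the site 74.2 kb downstream had a low value of 1.93 in hi-77+/+ empty replicate 2 and lone peaks of 8.58 in hi-77-/- empty replicate 4, 9.17 in GATA2 replicate 1 and 26.5 in 9aa-Ins replicate 1. GATA2 replicate 3 alone had a peak 25.4 kb upstream (54.7) and GATA2 replicate 2 alone 95.4 kb upstream (24.9). At 48.4 kb upstream, 9aa-Ins replicate 3 scored 58.9 against 47.6 to 48.9. The site 92.4 kb downstream of Casp4 had a lone peak of 19.7 in hi-77-/- empty replicate 3.

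Around Il18, GATA2 replicate 4 alone scored 23.3 at 31.9 kb upstream and 23.3 at 38.8 kb downstream, where 9aa-Ins replicate 2 alone scored 22.6. GATA2 replicate 3 alone scored 17.1 at 21.1 kb upstream, 17.1 at the promoter and 28.5 at 36.1 kb downstream. At the promoter hi-77-/- empty replicate 3 scored 8.53 (others up to 0.88), and at 36.1 kb downstream hi-77-/- empty replicate 3 scored 8.53 and hi-77+/+ empty replicate 1 scored 13.3.

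For the number of peaks within 100 kb, hi-77+/+ empty replicate 2 had 5 around Nlrc4 (6 in the others), hi-77+/+ empty replicate 4 had 2 around Casp1 (1 in the others) and GATA2 replicate 1 had 0 around Casp1 (1 in the others). Around Casp4, hi-77-/- empty replicate 3 had 1 (0 in the others) and 9aa-Ins replicate 4 had 0 (1 in the others).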

How the results depend on the processing

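Of 1429 alternative values of the 55 calls at named regions, 1276 kept the call, 153 lost it and 0 turned its sign, and 22 calls were kept throughout. Regions called with the deletion (30 of 74 tested) numbered 14 of 38 in a 50 kb window and 19 of 66 with 50% cover. They numbered 17 of 36 with lists shortened to 50% of the 49000 peaks, and 23 to 31 on leaving out 1 library. With GATA2 (15 of 74) there were 8 of 66 with 50% cover and 12 to 18 without 1 library. With 9aa-Ins (5 of 74) there were 16 of 111 with complete lists (10.4% of all regions higher) and 20 of 90 with -log10 q of at least 5 (13%). There were 3 of 74 on normal scores, 12 of 66 with 50% cover and 4 to 6 without 1 library. For 9aa-Ins against GATA2 (19 of 74) there were 51 of 111 with complete lists, 50 higher and 1 lower (28.8% and 2.5% of all regions). With -log10 q of at least 5 there were 44 higher and 0 lower of 90 tested (38% and 2.83%). A 50 kb window gave 12 of 38 and shortened lists 12 of 36, and leaving out 1 library 15 to 20. Presence calls with the deletion (9 opened, 0 closed) were 3 opened and 6 closed with complete lists, 4 and 2 with shortened lists, 5 and 1 with 50% cover, and 9 to 13 in all without 1 library. With GATA2 (1 closed) they were 1 opened and 0 closed with complete lists, 4 with 50% cover, 4 with shortened lists, 0 with peaks narrower than 1 kb and 1 to 3 without 1 library (2 without any hi-77-/- empty library or GATA2 replicate 1 or 3, and 3 without GATA2 replicate 2). With 9aa-Ins (1) they were 6 with complete lists, 4 with -log10 q of at least 5, 4 with 50% cover, 2 with shortened lists, 0 with peaks narrower than 1 kb and 1 to 2 without 1 library (2 without hi-77-/- empty replicate 2, 3 or 4 or 9aa-Ins replicate 4). For 9aa-Ins against GATA2 (2) they were 11, 9, 1 and 12 with complete lists, -log10 q of at least 5, a 50 kb window and 50% cover, and 2 to 5 without 1 library (4 without GATA2 replicate 2 or 4, 5 without GATA2 replicate 3). Genes whose peak numbers did not overlap (6 of 36 gene and comparison pairs) numbered 10 with -log10 q of at least 5, 3 within 50 kb, 11 with shortened lists and 6 to 8 without 1 library. The number of Il18 peaks turned from -3.75 to 0.25 with GATA2 when the lists were shortened. With the replicate number as a block, 25, 17, 5 and 18 regions were called for the deletion, GATA2, 9aa-Ins and 9aa-Ins against GATA2, but the numbers did not pair the libraries (same-number correlations -0.0329 to 0.0912, other numbers -0.0593 to 0.0604). Shares over all regions were not computed for 50% cover, nor for peak numbers of genes under the alternatives. For shortened lists they were computed by presence only. Counts without such a share cannot tell a change at the listed genes from a change at all regions. The cause of these changes was not tested. Depth limits the weakest peaks, where a score of 0 says only that no peak was among those kept.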
